A study of Danio rerio with 20 samples.

Results

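A set of 51 genes was lower in the liver tumors of both zebrafish models of β-catenin-driven hepatocellular carcinoma (HCC), CreLox and HepABC. The members were chosen from the measured values among the 32520 genes of the count tables. Counts were expressed as CPM, the count of a gene divided by the total of its library and scaled to a total of 1000000. A gene was a member when, in each model, the HCC fish with the highest CPM was below the control fish with the lowest CPM, the control mean was at least 1 CPM, and the HCC mean was at most 0.5 times the control mean. The CreLox condition was met by 272 genes, the HepABC condition by 383 and both by 59. Of the genes passing the filter on low counts, 2.98% had every CreLox HCC fish below every control and 3.03% every HepABC HCC fish below every control. Of those 59, 8 were set aside because their symbols begin with cyp, slc, ugt or gst, in either case of the letters: SLC26A2, cyp39a1, slc7a2, SLC43A1, SLC25A33, cyp2k22, SLC27A6 and ugt5b4. Because the comparison of HCC with control chose the members, all values of that comparison are given here as a description.

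Bulk RNA was sequenced from 20 livers of adult male zebrafish, 1 fish per library, in 2 experiments. In the CreLox experiment all fish were 11 months old. The fish carrying Tg(fabp10a-CreERT2;fabp10a-flox-beta-catenin) had received 10 µM 4-hydroxytamoxifen as larvae from day 3 to day 6 after fertilization, and by histology 4 had HCC (604, 605, 623 and 624) and 2 did not (625 and 609, called noHCC). The study's methods state a smaller HCC group for this experiment than the labels do, and the labels were followed. Their 4 controls (630, 628, 621 and 622) carried Tg(fabp10a-CreERT2) alone and had received 0.1% ethanol. The HepABC experiment held 5 fish with Tg(fabp10a-pt-beta-catenin) and HCC (317E5, 317E6, 317E9, 317E10 and 317E11) and 5 wild-type controls without HCC, called NonTg (317C1, 317C2, 317C4, 317C5 and 317C8), all 6 months old and untreated. Values of single fish are listed in this order throughout. The fabp10a promoter directs each transgene to hepatocytes, and in CreLox fish only hepatocytes with Cre recombination can make activated β-catenin. The study reports uneven β-catenin localization in tumors of both models. The RNA came from pieces of whole liver. All fish with the flox transgene descend from a single founder, per the study's methods. In the CreLox experiment the β-catenin transgene and tamoxifen went together, and their contributions cannot be told apart. Between the 2 experiments the age, the transgene, the count table and the removal of optical duplicates all differed.

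The liver makes most plasma proteins, including complement components, coagulation factors and pentraxins, and it carries out much of the breakdown of amino acids, nucleotides and steroids. In mammals β-catenin signalling divides these tasks among hepatocytes by inducing genes of the cells around the central vein and restraining genes of the cells around the portal tract. Many hepatocyte functions are known to be reduced in HCC. The 51 genes include plasma proteins and enzymes, as well as signalling ligands, receptors and matrix proteins.

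Library totals were 20903187 to 37994885 counts. The summed CPM of 12 hepatocyte markers was 45422 to 91811 in HepABC HCC and 163213 to 185259 in NonTg controls, and 123914 to 141538 in CreLox HCC, 124399 to 151063 in noHCC and 127007 to 181187 in Cre controls. None of these markers was at 0 in any group. The means of 11 of the 12 were lower in HepABC HCC than in NonTg, unequally, with ahsg2 at 28.7 and 3024 CPM and fabp10a at 10456 and 14820 CPM, while hnf4a was at 163 and 146 CPM. The biliary list (5 of its 6 genes found) summed to 5475 to 11252 CPM in HepABC HCC against 641 to 1833 CPM in NonTg controls, and to 1299 to 3801 CPM in CreLox HCC against 718 to 1108 CPM in Cre controls. Most of the CreLox sum came from krt18a.1 (mean 1360 CPM in HCC and 301 CPM in Cre controls) and anxa4 (1296 and 562 CPM), and krt4 (9.44 and 59.0 CPM) and epcam (16.9 and 28.8 CPM) had lower means in HCC. The erythrocyte list (3 of 6 genes found, none at 0 in every fish of a group) summed to 37.1 to 74.3 CPM in HepABC HCC against 223 to 510.3 CPM in NonTg, and to 158 to 475 CPM in CreLox HCC against 114 to 394 CPM in Cre controls. The part of these cell types in the members' values was not tested. In bulk liver, fewer cells of a type and less RNA per cell cannot be told apart. Fitted log2 changes below used TMM-scaled libraries, under which the median gene changed by −0.05 in CreLox HCC and −0.0010 in HepABC HCC. With library size alone these medians were 0.22 and 0.87, so that a fitted HepABC change is more negative than the matching CPM ratio.

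Mean CPM in CreLox HCC was 1.58% to 47.8% of the Cre control mean, with a median of 29.3% over the 51 genes. HepABC HCC had a median of 14.3% of the NonTg mean and a range of 0.431% to 47.4%. The HepABC percentage was the lower of the pair for 42 genes and the CreLox percentage for 9, and 16 genes were under 25% in both models. Control levels were within 2-fold of each other between the experiments for 42 of the 51 genes (82.4%), compared with 87.2% of the 11879 genes with at least 1 CPM in both control groups. Nearest inside the ratio limit were ENSDARG00000117431 (47.8% of control in CreLox and 36.9% in HepABC), EMILIN2 (45.8% and 47.4%) and GPAT3 (46.6% and 42.6%). Nearest outside it were BMP2 ENSDARG00000013409 (50.4% and 43.0%), si:ch73-217n20.1 (50.9% and 22.3%) and MMP2 (51.2% and 28.6%).

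**Figure D1:**
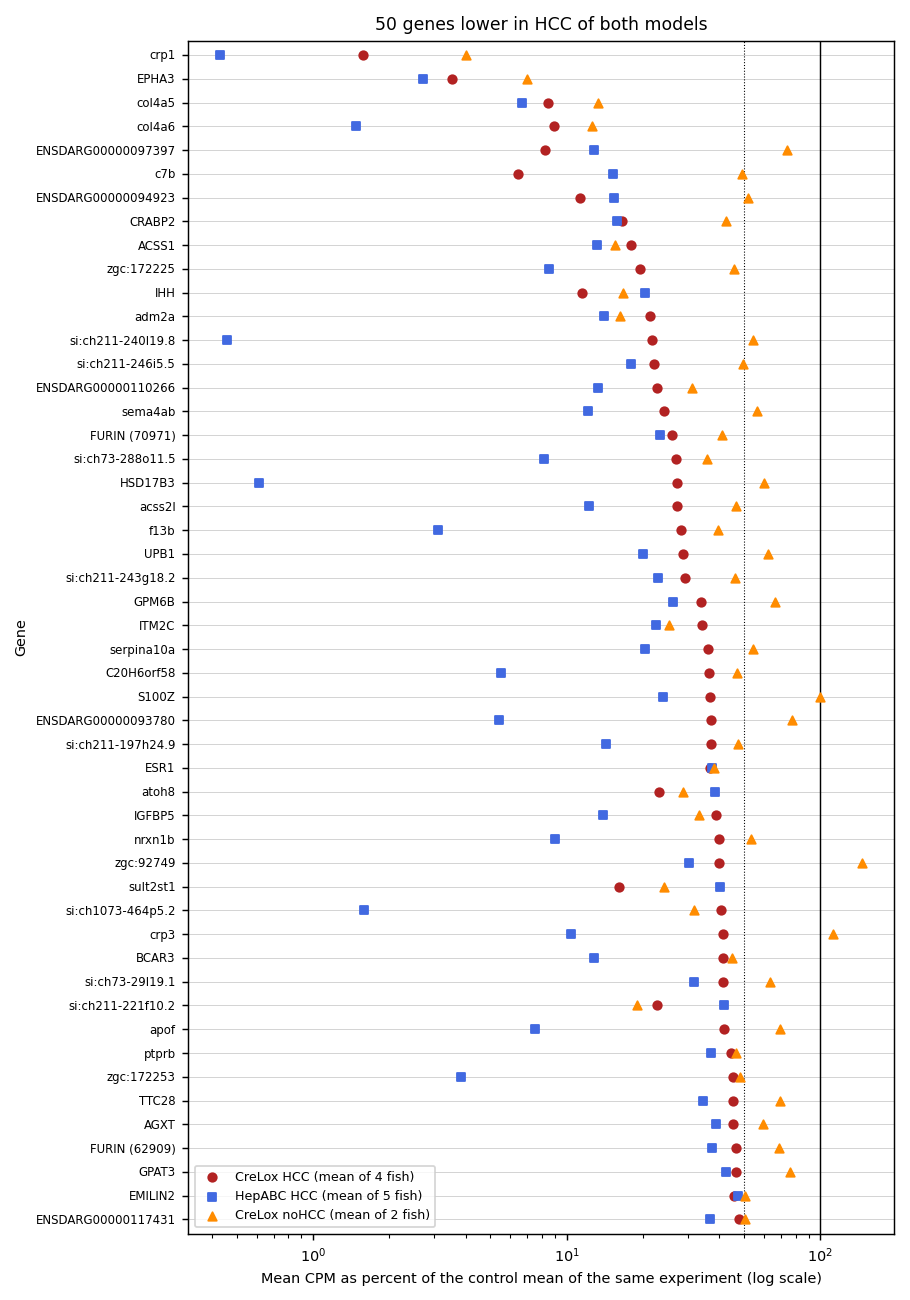
Mean CPM of 50 of the genes as a percent of the control mean of the same experiment, on a log axis, ordered from the largest to the smallest decrease shared by both models. Circles are CreLox HCC, squares HepABC HCC and triangles CreLox noHCC, with the solid line at 100% and the dotted line at the 50% limit. HepABC squares lie left of the CreLox circles for 41 genes, and the noHCC triangles lie left of the 100% line for 48.

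In edgeR's quasi-likelihood test, 35 of the 51 genes passed a Benjamini-Hochberg adjusted p of 0.05 as lower in CreLox HCC, where 1.81% of the 16837 genes tested did. In HepABC HCC all 50 members tested passed as lower, where 16.2% of 15864 genes did, and crp1 fell under the filter on low counts. These contrasts chose the members and nothing is read from the counts. Leaving out 604, 605 or 623 in turn lowered the CreLox count to 11, 10 and 13, and it was 22 when control 621 or 622 was omitted. Over all genes tested the number called lower fell too, from 304 to 69, 72 and 72 without those HCC fish. It was 191 without control 621 and 203 without control 622.

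Secreted plasma and liver proteins made up 7 of the 51 genes: the pentraxins crp1 and crp3, the terminal complement component c7b, the coagulation factor XIII B subunit f13b, the protein Z-dependent protease inhibitor serpina10a, apolipoprotein F (apof), and C20H6orf58 ENSDARG00000095751, a relative of the secreted liver protein Leg1. Their median level was 36.1% of control in CreLox HCC and 7.48% of control in HepABC HCC.

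The pentraxin crp1, related to mammalian C-reactive protein, had the largest shared decrease. CreLox HCC livers had 0, 0.119, 0.209 and 0.159 CPM, noHCC livers 0.243 and 0.378 CPM, and Cre controls 8.13, 0.568, 11.8 and 10.4 CPM. Control 628 was far below the other controls and still above every HCC and noHCC fish. HepABC HCC livers held 1 crp1 count in total, in fish 317E9, against 229 counts in the 5 NonTg livers (2.37, 0.258, 1.03, 1.73 and 1.68 CPM), a ratio of pooled rates of 250-fold lower with an exact 95% interval of 44.4 to 9917 that covers counting error only. Its relative crp3 was an abundant transcript with 182, 1056, 863 and 726 CPM in CreLox HCC, 2301 and 1544 CPM in noHCC, and 1061, 2098, 2243 and 1462 CPM in Cre controls. The gap between the highest CreLox HCC fish and the lowest control was thus 1056 to 1061 CPM, while noHCC fish 609 lay among the controls and fish 625 just above them. In HepABC HCC crp3 was at 244, 60.2, 364, 103 and 125 CPM, against 2182, 1755, 1944, 1665 and 1032 CPM in NonTg, with no overlap.

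Other pentraxins were looked at after their values were seen. crp5 was not a member, because its NonTg controls ranged from 1.42 to 2438 CPM, although its fitted log2 change was −3.92 ± 0.65 (SE) in CreLox HCC and −5.89 ± 1.79 in HepABC HCC. crp2 had 36.6 ± 21.4 CPM in CreLox HCC and 102 ± 51.8 CPM in Cre controls (SD, n = 4 each). On the acute-phase list, 3 of 11 genes tested were lower in CreLox HCC and 7 of 10 in HepABC HCC, and none was higher. The list medians were −1.39 and −2.02 on the log2 scale. Of all genes tested, 1.81% were lower in CreLox HCC and 16.2% in HepABC HCC. Called higher were 403 of 16837 and 2766 of 15864. The list holds the members crp1, among the 3, and crp3, among the 7, and the same contrasts chose them. Related crp copies may share reads, so the value of a single copy is uncertain.

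The complement gene c7b, whose product joins the membrane attack complex, was at 16.2, 12, 18 and 11.8 CPM in CreLox HCC, 176 and 46.5 CPM in noHCC, and 66.6, 85.9, 309.5 and 439.8 CPM in Cre controls. The HCC fish were tightly grouped, and the noHCC fish fell between them and the highest controls. HepABC HCC fish spread from 22.5 to 325 CPM and NonTg controls from 372 to 2875 CPM, with fish 317C4 the highest. Other components of the terminal pathway were compared after their values were seen. c9 averaged 5011 ± 836 CPM in CreLox HCC and 5425 ± 637 CPM in Cre controls (SD, n = 4 each), and c7a 3.15 ± 0.68 and 2.87 ± 0.43 CPM (SD, n = 4 each). In HepABC, c9 averaged 1445 ± 797 CPM in HCC and 5962 ± 1947 CPM in NonTg (SD, n = 5 each). There c7a went the other way, at 8.58 ± 4.61 CPM in HCC and 3.13 ± 1.72 CPM in NonTg (SD, n = 5 each). Its fitted log2 change of 0.56 ± 0.42 (SE) was not called (edgeR adjusted p = 0.329).

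The factor XIII subunit f13b had 12.4, 14.3, 3.45 and 30.1 CPM in CreLox HCC, 29.7 and 12.6 CPM in noHCC, and 61.8, 70.8, 49.0 and 32.4 CPM in Cre controls. Fish 624 was closest to the controls. HepABC HCC livers had 2.65, 2.04, 1.1, 1.71 and 1.67 CPM, and NonTg livers had 48.2, 98.4, 46.2, 90.0 and 12.7 CPM. Over the complement and coagulation list, 2 of 48 genes tested were lower in CreLox HCC, c7b and the plasmin inhibitor serpinf2a (log2 change −1.18 ± 0.25, SE). In HepABC HCC 35 of 47 were lower and none was higher. Of all genes tested, 1.81% were lower in CreLox HCC and 16.2% in HepABC HCC, where 2766 of 15864 were higher. This list holds 2 members, c7b among them, which the same contrasts chose. The list medians were −0.47 and −1.80 on the log2 scale.

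C20H6orf58 ENSDARG00000095751 had 826, 342, 517 and 956 CPM in CreLox HCC against 1935, 1181, 3092 and 1032 CPM in Cre controls, and 24.5 to 96.6 CPM in HepABC HCC against 729 to 1723 CPM in NonTg. A second gene ID with the same symbol, ENSDARG00000090722, averaged 1813 ± 922 CPM in CreLox HCC and 2955 ± 990 CPM in Cre controls (SD, n = 4 each), so that copy was not a member, and reads shared by the copies cannot be assigned with certainty. apof had 50.4, 66.2, 81.9 and 172 CPM in CreLox HCC against 175, 219.6, 286 and 205 CPM in Cre controls. The margin between fish 624 and the lowest control was small for apof. serpina10a ranged over 11.2 to 29.6 CPM in CreLox HCC against 47.8 to 54.3 CPM in Cre controls, and over 3.48 to 23.1 CPM in HepABC HCC against 41.1 to 103 CPM in NonTg.

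**Figure D2:**
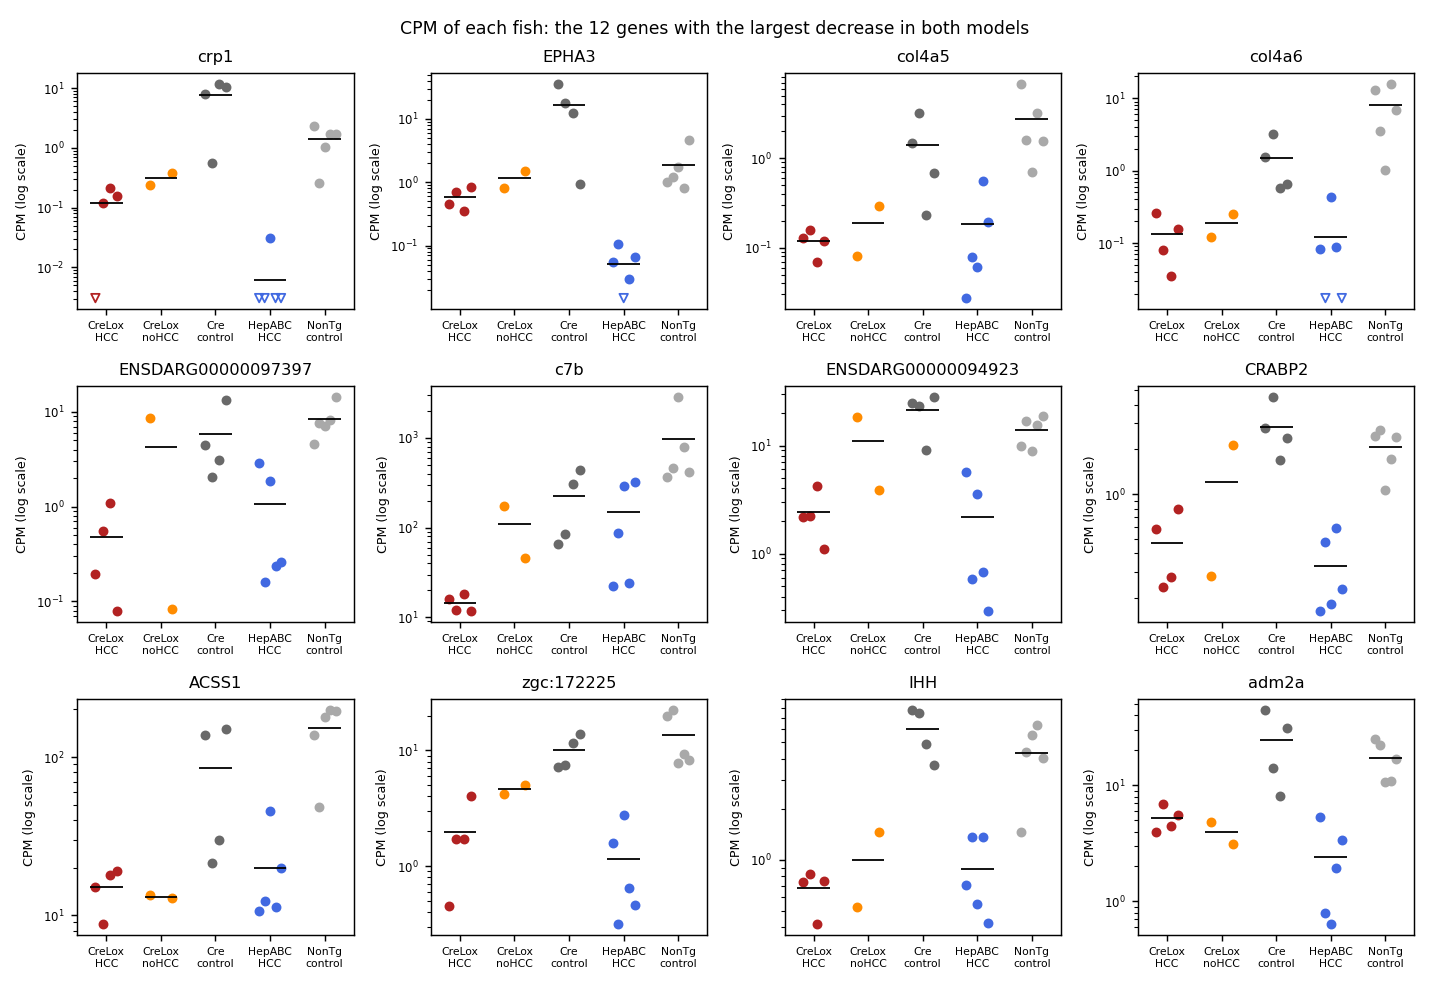
CPM of each fish, on a log axis, for the 12 genes with the largest decrease shared by both models. Filled points are fish, open triangles are fish with 0 counts drawn at an arbitrary low position, and horizontal lines are group means. Every HCC point lies below every control point of its experiment, as the choice of genes requires. Single controls approach the tumors in crp1 (0.568 CPM), EPHA3 (0.949 CPM) and col4a5 (0.234 CPM).

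Enzymes were another 7 members. Their median level was 27.2% of control in CreLox HCC and 20% in HepABC HCC. AGXT ENSDARG00000018478, alanine-glyoxylate aminotransferase, which removes glyoxylate, had the highest control CPM of the 51 genes. It was at 995, 887, 1576 and 2445 CPM in CreLox HCC, 2401 and 1462 CPM in noHCC, and 4000.2, 2655, 3363 and 2987 CPM in Cre controls. Fish 624 and noHCC fish 625 had nearly equal levels just under the lowest control. HepABC HCC had 837, 851, 1099.9, 1494 and 1239 CPM, and NonTg had 3596, 3435, 2307, 1832 and 3069.7 CPM. A second AGXT gene ID, ENSDARG00000052099, looked at after its values were seen, averaged 1236 ± 126 CPM in CreLox HCC and 1317 ± 198 CPM in Cre controls (SD, n = 4 each). Of 6 gene IDs on a list of AGXT relatives, the member among them, edgeR called 0 lower in CreLox HCC and 5 in HepABC HCC. The shares of all genes tested were 1.81% and 16.2%.

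HSD17B3, a 17β-hydroxysteroid dehydrogenase that reduces androstenedione to testosterone, differed most between the models among the enzymes. CreLox HCC livers had 41.6, 79.1, 92.7 and 202 CPM, noHCC livers 277 and 185 CPM, and Cre controls 315, 405, 395 and 418 CPM. All HepABC HCC livers were far lower, at 4.51, 0.185, 3.36, 0.325 and 0.523 CPM, against 295, 264, 400.2, 78.0 and 413 CPM in NonTg. The CreLox HCC mean was 27.1% of control and the HepABC HCC mean 0.614%.

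sult2st1, a steroid sulfotransferase, was at 0.418, 0.475, 0.662 and 0.516 CPM in CreLox HCC against 0.813, 3.44, 2.34 and 6.26 CPM in Cre controls. It was one of the 9 genes with the lower percentage in CreLox, 16.1% of control, against 40.3% in HepABC. Its relative sult2st3, not a member, ranged over 2.72 to 3.61 CPM in CreLox HCC against 14.2 to 95.3 CPM in Cre controls, and averaged 0.759 ± 0.697 CPM in HepABC HCC and 0.761 ± 0.363 CPM in NonTg (SD, n = 5 each). On the hormone list, which holds sult2st1 and ESR1, 3 of 25 genes were lower and 1 higher in CreLox HCC, and 17 were lower and 1 higher in HepABC HCC. Both members, chosen by the same contrasts, were among the lower genes in each model. Of all genes tested, 1.81% were lower and 403 of 16837 higher in CreLox HCC. The matching figures in HepABC HCC were 16.2% and 2766 of 15864. The list gene higher in both was lepr, the leptin receptor, with log2 changes of 2.28 ± 0.31 (SE) in CreLox HCC and 1.78 ± 0.46 in HepABC HCC.

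UPB1, the β-ureidopropionase of the last step of pyrimidine breakdown, had 19.1, 27.7, 16.1 and 26.5 CPM in CreLox HCC, 52.1 and 44.2 CPM in noHCC, and 65.2, 81.5, 93.0 and 70.4 CPM in Cre controls. The 3 CreLox groups did not overlap. HepABC HCC had 35.4, 11.3, 25.3, 31.7 and 35.9 CPM, and NonTg had 102, 120.2, 182, 149 and 143 CPM. On the list of urate, purine and one-carbon genes, 2 of 12 were lower in CreLox HCC (UPB1 and dihydrofolate reductase, dhfr) and 6 of 11 in HepABC HCC. The shares of all genes tested were 1.81% and 16.2%, and UPB1 was chosen by the same contrasts. The enzyme before it, DPYS, averaged 229 ± 83.5 CPM in CreLox HCC and 287 ± 63.2 CPM in Cre controls (SD, n = 4 each), and was examined after its values were seen. In HepABC HCC it averaged 109 CPM against 171 CPM in NonTg and was called lower (log2 change −1.51 ± 0.24, SE, edgeR adjusted p = 0.00101).

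A pair of members activate acetate to acetyl-CoA or are named as relatives of enzymes that do. ACSS1, the mitochondrial acetyl-CoA synthetase, had 15.0, 8.82, 17.9 and 19.0 CPM in CreLox HCC, 13.4 and 12.8 CPM in noHCC, and 138, 21.3, 29.9 and 149.7 CPM in Cre controls. Its Cre controls were split, with 628 and 621 near the HCC fish and 630 and 622 far above. acss2l was at 14.4, 8.27, 23.9 and 20.8 CPM in CreLox HCC against 48.9, 92.7, 45.8 and 60.1 CPM in Cre controls, and at 2.29 to 5.56 CPM in HepABC HCC against 24.1 to 45.1 CPM in NonTg. ACSS2, examined after its values were seen, averaged 45.8 ± 17.1 CPM in HepABC HCC and 14.4 ± 5.18 CPM in NonTg (SD, n = 5 each), with a fitted log2 change of 0.84 ± 0.35 (SE) that was not called (edgeR adjusted p = 0.0837). GPAT3 ENSDARG00000016048, an acyltransferase of triglyceride synthesis, ranged over 14.0 to 28.5 CPM in CreLox HCC against 43.1 to 47.8 CPM in Cre controls.

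**Figure D3:**
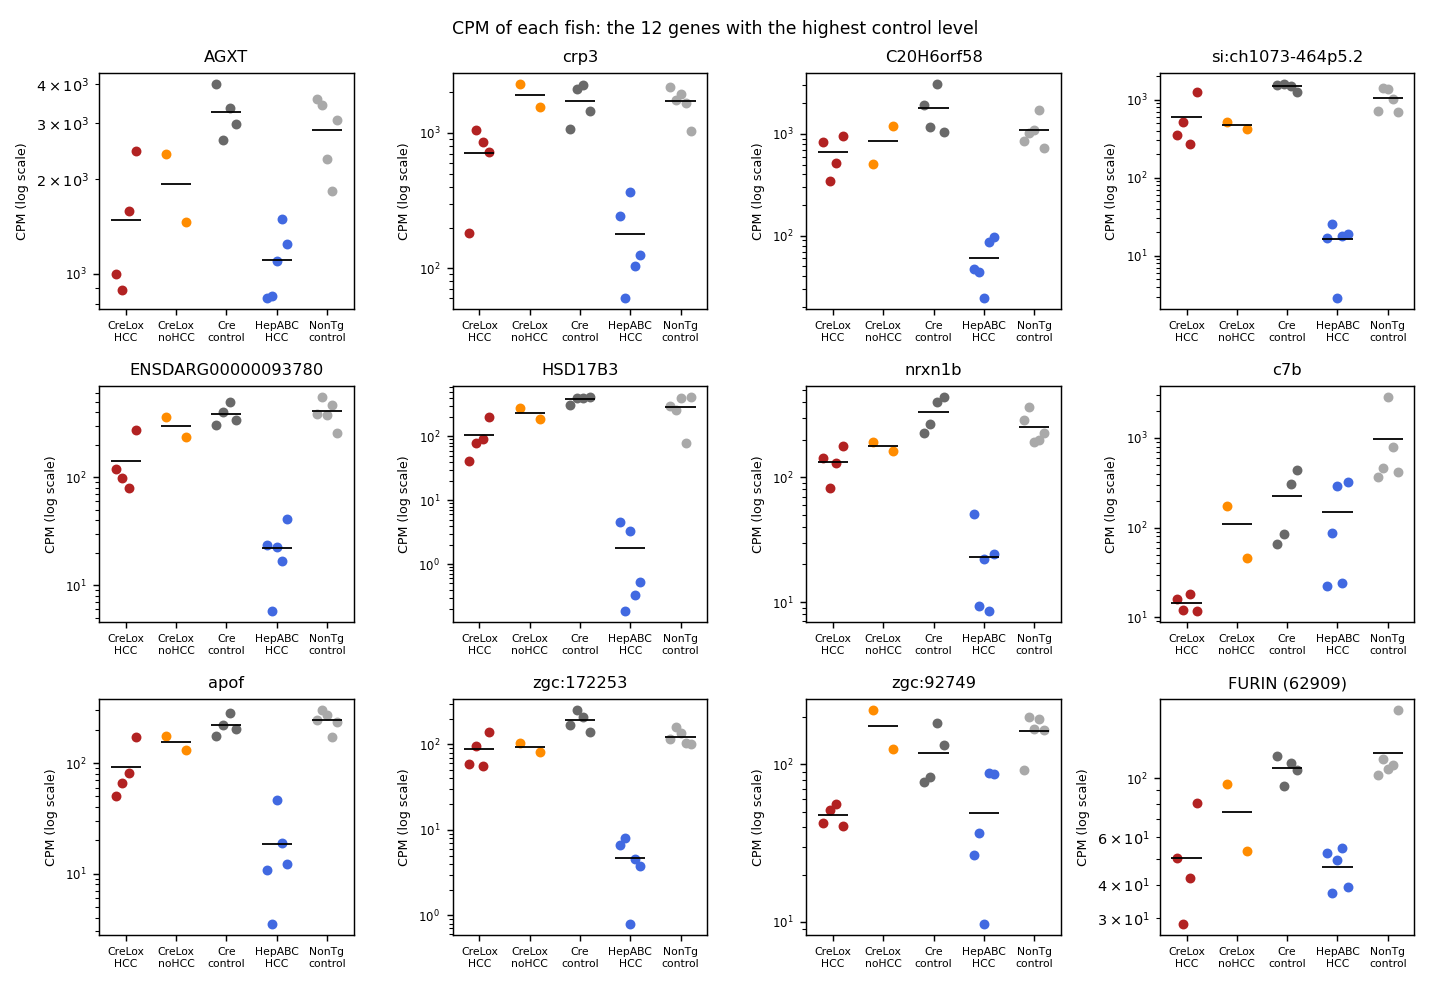
CPM of each fish, on a log axis, for the 12 genes with the highest control level, with points and lines as group values and means. Fish 624 is the CreLox HCC fish nearest the controls for si:ch1073-464p5.2 (1248 CPM) and AGXT (2445 CPM), and the noHCC fish lie within or above the controls for crp3 and zgc:92749.

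Signalling proteins and regulators were the largest named class, 14 of the 51 genes, at a median of 31.3% of control in CreLox HCC and 18.1% in HepABC HCC. Among ligands, IHH (Indian hedgehog, which acts on neighbouring cells through Patched) had 0.740, 0.831, 0.418 and 0.754 CPM in CreLox HCC, 0.527 and 1.47 CPM in noHCC, and 7.80, 7.49, 4.88 and 3.68 CPM in Cre controls. HepABC HCC had 0.710, 1.38, 0.549, 1.36 and 0.425 CPM, and NonTg had 1.46, 4.36, 5.5, 6.28 and 4.05 CPM. Among the controls, fish 317C1 came nearest to the tumors. Of the hedgehog genes looked at after their values were seen, the decoy receptor HHIP averaged 37.4 ± 18.2 CPM in CreLox HCC and 80.6 ± 18.3 CPM in Cre controls (SD, n = 4 each), while the receptor PTCH1 averaged 2.47 ± 0.67 and 2.35 ± 0.65 CPM (SD, n = 4 each).

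The peptide hormone adm2a (adrenomedullin 2) had 3.93, 6.92, 4.42 and 5.56 CPM in CreLox HCC, 4.86 and 3.11 CPM in noHCC, and 44.8, 14.0, 8.05 and 31.0 CPM in Cre controls. The noHCC fish were as low as the HCC fish. HepABC HCC livers had 0.641 to 5.35 CPM and NonTg livers 10.7 to 25.2 CPM. IGFBP5 ENSDARG00000025348, a binding protein of insulin-like growth factors, ranged over 3.28 to 10.3 CPM in CreLox HCC against 16.6 to 21.0 CPM in Cre controls, and over 0.976 to 4.21 CPM in HepABC HCC against 11.9 to 24.9 CPM in NonTg. sema4ab, a semaphorin, was at 2.74 to 8.85 CPM in CreLox HCC against 19.6 to 23.2 CPM in Cre controls and at 1.40 to 4.27 CPM in HepABC HCC against 16.2 to 33.9 CPM in NonTg.

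FURIN, a convertase that cleaves precursors of many secreted proteins, was represented by both of its gene IDs. FURIN ENSDARG00000070971 had 6.4, 10.2, 5.99 and 13.2 CPM in CreLox HCC, 11.6 and 16.8 CPM in noHCC, and 43.8, 33.9, 31.8 and 28.7 CPM in Cre controls. FURIN ENSDARG00000062909 had 50.2, 28.5, 42.3 and 80.7 CPM in CreLox HCC, 95.4 and 53.5 CPM in noHCC, and 121, 93.1, 114 and 107 CPM in Cre controls. The noHCC fish were below all controls for the first copy, and fish 625 overlapped the controls for the other. In HepABC, the first copy was at 5.11 to 10.1 CPM in HCC against 21.7 to 37.1 CPM in NonTg, and the other at 37.1 to 54.7 CPM against 103 to 180.0 CPM. PCSK5, another convertase and chosen after its values were seen, averaged 61.4 ± 13.3 CPM in CreLox HCC and 71.8 ± 9.45 CPM in Cre controls (SD, n = 4 each), and 72.3 ± 12.4 CPM in HepABC HCC and 66.0 ± 6.79 CPM in NonTg (SD, n = 5 each). With TMM scaling its HepABC direction turned, to a fitted log2 change of −0.71 ± 0.22 (SE) that was called lower (edgeR adjusted p = 0.0284).

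Among receptors, EPHA3, a receptor tyrosine kinase for ephrins, had 0.451, 0.712, 0.348 and 0.833 CPM in CreLox HCC, 0.810 and 1.51 CPM in noHCC, and 35.7, 17.6, 12.2 and 0.949 CPM in Cre controls. Control 622 was therefore at the level of the transgenic fish, and the EPHA3 mean of 16.6 ± 14.5 CPM (SD, n = 4) rested on the other controls. HepABC HCC had 0.0546, 0.106, 0, 0.0296 and 0.0653 CPM, or 9 counts in 5 libraries, and NonTg had 0.991, 1.23, 1.77, 0.805 and 4.63 CPM. The EPHA3 control mean was 8.82-fold higher in Cre controls than in NonTg, the widest difference in control level of the 51 genes. ptprb, a phosphatase of endothelial cells, had narrow groups, 7.98 to 15.2 CPM in CreLox HCC, 11.1 and 12.4 CPM in noHCC and 24.0 to 27.8 CPM in Cre controls, and 6.21 to 11.4 CPM in HepABC HCC against 19.7 to 29.0 CPM in NonTg. The sum of the endothelial markers (6 genes found) overlapped in CreLox, at 92.6 to 133 CPM in HCC and 87.8 to 120.4 CPM in Cre controls. For HepABC it was 57.0 to 82.8 CPM in HCC and 84.2 to 104 CPM in NonTg, and lyve1b was at 0 in every Cre control. The markers disagreed. In CreLox HCC 5 of the 6 means were higher than in Cre controls and 1, kdrl, was lower. Without overlap, tie1 was at 15.5 to 29.5 CPM against 8.25 to 11.9 CPM and stab1 at 7.50 to 11.6 CPM against 4.14 to 6.91 CPM. In HepABC HCC 4 means were lower and 2 higher, with kdrl at 32.3 CPM against 52.8 CPM and stab1 at 5.54 CPM against 4.78 CPM. These directions are by CPM, and with library size alone the median gene in HepABC HCC was 0.87 higher on the log2 scale. The part of endothelial content in the ptprb values was not tested.

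ESR1, the estrogen receptor α that induces vitellogenins in fish liver, had 0.869, 1.54, 1.22 and 1.79 CPM in CreLox HCC, 1.34 and 1.47 CPM in noHCC, and 4.40, 2.27, 3.04 and 5.05 CPM in Cre controls. HepABC HCC had 1.23, 0.397, 0.671, 0.562 and 0.980 CPM, and NonTg had 2.42, 2.49, 1.51, 1.93 and 1.87 CPM. By CPM the mean was 36.7% of control in CreLox HCC, 38.1% in noHCC and 37.6% in HepABC HCC, while the fitted log2 changes were −1.74 ± 0.39, −1.59 ± 0.50 and −2.28 ± 0.36 (SE). A list of estrogen response genes that holds ESR1 went otherwise in HepABC HCC, with 4 of 6 genes tested higher and 1, ESR1 itself, lower. Of all genes tested there, 2766 of 15864 were higher and 16.2% lower. The list's median log2 change in HepABC HCC was 3.82. In CreLox HCC 1 of 5, again ESR1, was lower and 0 were higher, with a median of −0.32. In that contrast 403 of all 16837 genes tested were higher and 1.81% lower.

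Of the remaining regulators, CRABP2 ENSDARG00000030449, a carrier of retinoic acid, had 0.579, 0.237, 0.279 and 0.794 CPM in CreLox HCC, 0.284 and 2.14 CPM in noHCC, and 2.77, 4.51, 1.70 and 2.39 CPM in Cre controls. The noHCC fish were on opposite sides, 625 with the HCC fish and 609 with the controls. atoh8, a basic helix-loop-helix transcription factor, was at 1.26 to 2.38 CPM in CreLox HCC against 2.47 to 14.6 CPM in Cre controls, and BCAR3, an adaptor of integrin signalling, at 1.83 to 2.34 CPM against 3.19 to 7.95 CPM. S100Z, a calcium-binding protein, was at 0.244 to 1.48 CPM in CreLox HCC against 2.17 to 3.88 CPM in Cre controls. The HepABC margin was narrow for atoh8, at 0.214 to 1.51 CPM in HCC against 1.53 to 4.39 CPM in NonTg.

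Matrix, membrane and other named proteins were 7 members, at a median of 34.1% of control in CreLox HCC and 22.4% in HepABC HCC. The type IV collagen chains col4a6 and col4a5, which form basement membranes, were adjacent genes on chromosome 7 of the RefSeq assembly GRCz12tu. col4a6 had 0.257, 0.0791, 0.0348 and 0.159 CPM in CreLox HCC, 0.122 and 0.252 CPM in noHCC, and 1.53, 3.20, 0.568 and 0.645 CPM in Cre controls. In HepABC it had 0.0819, 0, 0.427, 0.0887 and 0 CPM in HCC and 13.2, 3.52, 1.03, 15.7 and 6.92 CPM in NonTg. The control fish ranked alike for col4a5 in the Cre group, which had 1.48, 3.23, 0.234 and 0.683 CPM, with 628 highest and 621 lowest for both chains. Another basement-membrane chain, COL4A1, examined after its values were seen, averaged 9.04 ± 1.62 CPM in CreLox HCC and 8.37 ± 1.89 CPM in Cre controls (SD, n = 4 each), and 8.07 ± 3.39 CPM in HepABC HCC and 7.49 ± 2.68 CPM in NonTg (SD, n = 5 each). The fitted HepABC change was −0.79 ± 0.32 (log2, SE, edgeR adjusted p = 0.0809) for COL4A1, and −0.94 ± 0.29 for COL4A2, which was called lower (edgeR adjusted p = 0.0275).

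nrxn1b, a neurexin adhesion protein best known from synapses, was among the genes with high control CPM. It had 142, 82.8, 129.6 and 177 CPM in CreLox HCC, 191 and 163 CPM in noHCC, and 229, 265, 398 and 442 CPM in Cre controls. HepABC HCC had 50.5, 9.26, 22.2, 8.48 and 24.4 CPM, and NonTg had 290.2, 369.5, 191, 199 and 226 CPM. The remaining genes of the class were EMILIN2, a matrix glycoprotein, the membrane proteins GPM6B ENSDARG00000001676 and ITM2C ENSDARG00000039650, and TTC28. Their HCC percentages were 33.9% to 45.8% in CreLox and 22.4% to 47.4% in HepABC.

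The last 16 members had no descriptive name, and 5 of them no symbol. The highest control CPM among them was that of si:ch1073-464p5.2, with 352, 521, 266 and 1248 CPM in CreLox HCC, 512 and 424 CPM in noHCC, and 1535, 1586, 1512 and 1254 CPM in Cre controls. Fish 624 was thus just under the lowest control, while the other transgenic fish were far below. HepABC HCC had 17.0, 25.7, 2.87, 18.1 and 18.8 CPM, and NonTg had 714, 1390.0, 1377, 1025 and 687 CPM. Its neighbour zgc:172253, the next protein-coding gene on chromosome 3 of GRCz12tu, had 59.8, 95.7, 55.3 and 139 CPM in CreLox HCC, 105 and 81.7 CPM in noHCC, and 168, 256, 207 and 142 CPM in Cre controls. Fish 624 was again the highest HCC fish. In HepABC zgc:172253 was at 0.793 to 8.04 CPM in HCC and 101 to 159 CPM in NonTg. The pentraxins crp1 and crp3 were also close together, with 1 protein-coding gene between them on chromosome 24.

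zgc:92749 had 42.2, 51, 56.4 and 40.5 CPM in CreLox HCC, 222 and 126 CPM in noHCC, and 76.8, 83.5, 182 and 133 CPM in Cre controls. Its noHCC fish were above all HCC fish and fish 625 was above all controls. ENSDARG00000093780 was at 80.5 to 272 CPM in CreLox HCC against 307 to 498 CPM in Cre controls, and at 5.79 to 41.3 CPM in HepABC HCC against 258 to 557 CPM in NonTg. ENSDARG00000094923, ENSDARG00000097397 and zgc:172225 were under 20% of control in both models. The 8 others besides si:ch211-240l19.8 were at 22.1% to 47.8% of control in CreLox HCC and 8.15% to 41.6% in HepABC HCC: si:ch211-246i5.5, si:ch73-288o11.5, si:ch211-243g18.2, si:ch211-197h24.9, si:ch73-29l19.1, si:ch211-221f10.2, ENSDARG00000110266 and ENSDARG00000117431.

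The member si:ch211-240l19.8 was set beside markers of another organ. Its CPM was 7.59, 8.43, 4.18 and 2.62 in CreLox HCC, 3.77 and 24.9 in noHCC, and 35.2, 8.81, 49.8 and 11.5 in Cre controls. In HepABC HCC it was 0.847, 0.502, 1.31, 0.443 and 1.57, against 661, 176, 139.9, 38.1 and 2.26 in NonTg. The summed CPM of the exocrine pancreas list (10 of 15 genes found, none at 0 in every fish of a group) was 15.5 to 72.7 in CreLox HCC, 8.71 and 212 in noHCC and 57.2 to 499 in Cre controls. In HepABC HCC that sum was 41.5, 23.0, 15.8, 24.8 and 41.3, against 5725, 1402, 1995, 682 and 14.0 in NonTg. Among NonTg controls, fish 317C1 was highest and fish 317C8 lowest in both the gene and the list. The HepABC HCC fish ranked differently, with 317E9 lowest in the list and 317E10 lowest in the gene. The part of pancreatic tissue in the si:ch211-240l19.8 values was not tested.

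Because hepatocyte markers were themselves lower in HepABC HCC, each CPM was also divided by the hepatocyte marker sum of its fish, an alternative added after seeing the data. That sum in HCC was 83.7% of control in CreLox and 35.2% in HepABC. After this scaling the median member was at 34.2% of control in CreLox HCC, 41 of 51 members were at 50% or less, and in 32 the HCC and control fish did not overlap. For HepABC HCC the median was 39.7%, 28 members were at 50% or less, 15 did not overlap and 40 were under 100%. These counts were taken over the members only, which were chosen for low HCC values without overlap before the scaling. They are a description. On the new scale the whole rule was met by HSD17B3 (33.1% in CreLox and 1.51% in HepABC), sema4ab (28.6% and 36.2%), nrxn1b (49.1% and 22.9%) and acss2l (32.6% and 36.6%), and by no other gene. crp1 was at 1.97% and 1.26% of control without overlap, and missed the rule because its rescaled NonTg mean of 0.959 CPM was under the minimum of 1 CPM. ESR1 (103%), AGXT (118%) and EMILIN2 (146%) were above control in HepABC HCC on this scale. Whether the marker transcripts or the hepatocyte share was lower in HepABC HCC was not tested.

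The size of the decrease differed between the models for part of the set. The HepABC log2 change minus the CreLox log2 change was fitted over all 20 libraries. It was negative and past the edgeR threshold for 14 of 51 members, where 5.33% of 18645 genes were. It was positive and past it for 0 members, where 6.01% of genes were. For members, which are lower in both models, a negative difference is a larger decrease in HepABC. Shares of all genes count the sign of the difference alone, whether a gene is higher or lower in either model. For the unadjusted p under 0.05, 23 members passed, all with a larger decrease in HepABC. Of all 18645 genes 5129 passed in either direction, and 2420 (13% of all genes) with a negative difference. DESeq2 gave 15 negative and 0 positive differences at the adjusted threshold, where 7.8% and 9.04% of all genes were past it. Both contrasts chose the members, so these counts are a description. HSD17B3 (log2 difference −6.05 ± 1.14, SE), si:ch211-240l19.8 (−6.02 ± 1.45) and si:ch1073-464p5.2 (−5.41 ± 0.71) had the largest differences. With library size alone the median gene had a difference of 0.63 rather than 0.04, the members' median was −0.52 rather than −1.11, and 12 members were past the threshold. All 12 were larger decreases in HepABC. Of all genes, 438 passed with a negative difference and 3044 with a positive one. Genes with differences near 0 included IHH (0.20 ± 0.58), ENSDARG00000094923 (−0.05 ± 0.94) and atoh8 (−0.09 ± 0.65). Model, age, treatment and count table differ together between the experiments, and their parts cannot be told apart.

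**Figure D4:**
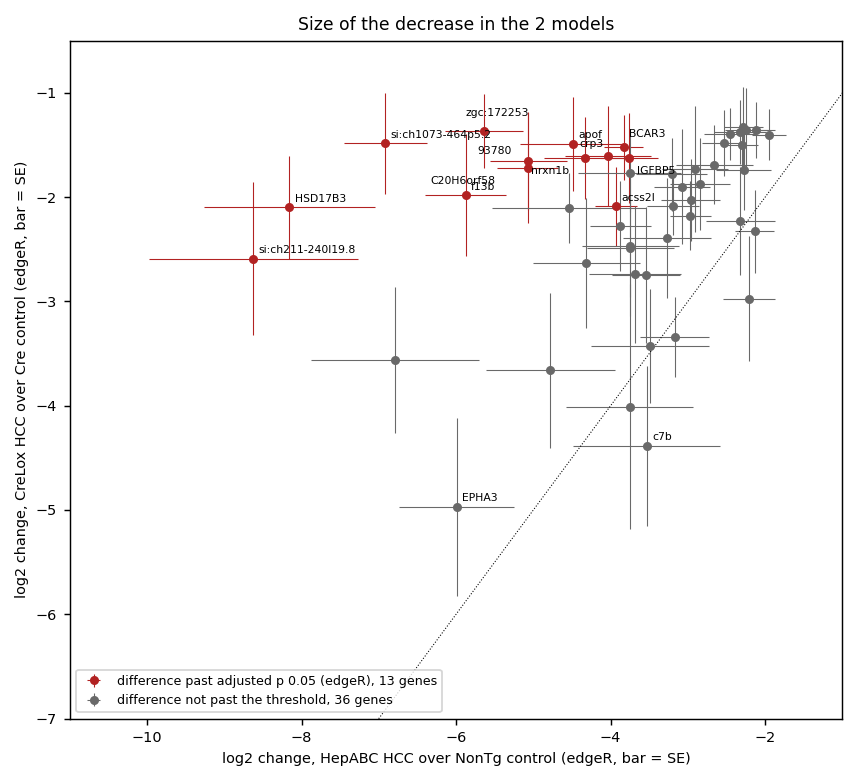
Fitted log2 change of HepABC HCC over NonTg on the horizontal axis and of CreLox HCC over Cre control on the vertical axis for 49 genes fitted in both experiments, with bars of 1 SE and a dotted line of equal change. The 13 labelled red genes are those with a difference past the threshold, and all lie left of the line, with HSD17B3 at −8.16 in HepABC and −2.10 in CreLox.

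The noHCC fish carried the same transgenes and treatment as the CreLox HCC fish and were not used to choose the members, although the controls they are set against were. Their mean was 4.03% to 146.5% of the Cre control mean, with a median of 46.9% over the 51 genes, compared with 29.3% in CreLox HCC. The mean was under 100% for 49 genes and under 50% for 30. The exceptions were zgc:92749 (146.5%) and crp3 (112%), with S100Z next at 99.6%. The lowest noHCC percentages were those of crp1 (4.03%), EPHA3 (6.99%) and col4a6 (12.6%). Genes that met the CreLox condition alone, 199 in number and described below, were much alike. Their noHCC median was 46.7% of control, with 194 under 100% and 112 under 50%, so these levels are not particular to the members.

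Both noHCC fish were below the lowest control for 31 of 51 members (60.8%), compared with 4.71% of all 16837 genes tested and with 99 of 199 genes (49.7%) that met the CreLox condition alone. These 199 are the 213 genes of that kind without the 14 whose symbols have the prefixes set aside above. For no member were both below the lowest CreLox HCC fish (0 of 51, against 7.39% of all genes), a count that the choice of low HCC values limits, and it was 4 of those 199 (2.01%). They were both above the highest CreLox HCC fish for 8 members (15.7%), against 3.12% of all genes and 25.1% of those 199. For 5 of the 51 members, UPB1 among them, both conditions held, as they did for 15 of those 199. In edgeR, 0 of 51 members passed the adjusted threshold as lower in noHCC than in Cre controls, where 0.0178% of all genes did, and 29 had an unadjusted p under 0.05, where 4.90% did. The smallest adjusted p values were 0.0731 for IHH (log2 change −2.67 ± 0.49, SE) and 0.0989 for ptprb (−1.29 ± 0.26). DESeq2 called 11 members lower (IHH, EPHA3, ACSS1, adm2a, col4a6, EMILIN2, FURIN ENSDARG00000070971, crp1, si:ch211-221f10.2, ptprb and si:ch73-288o11.5), where it called 0.802% of all genes lower. In limma voom 0 members were called lower, and 0 of all 16837 genes were. The edgeR count was 1 without control 628 and 2 without control 622, and 3 of all genes were called lower in each case.

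Between CreLox HCC and noHCC, 0 members passed the adjusted threshold in edgeR as lower in HCC, where 0.00594% of genes did. For 9 members the unadjusted p was under 0.05, as it was for 1.73% of genes. In limma voom 0 members were called lower, and 1 of all 16837 genes was. DESeq2 called zgc:92749, with a log2 change of −1.97, and 0.0713% of all genes. The noHCC group held 2 fish, and the 2 comparisons share their controls or their HCC fish with the choice of members.

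**Figure D5:**
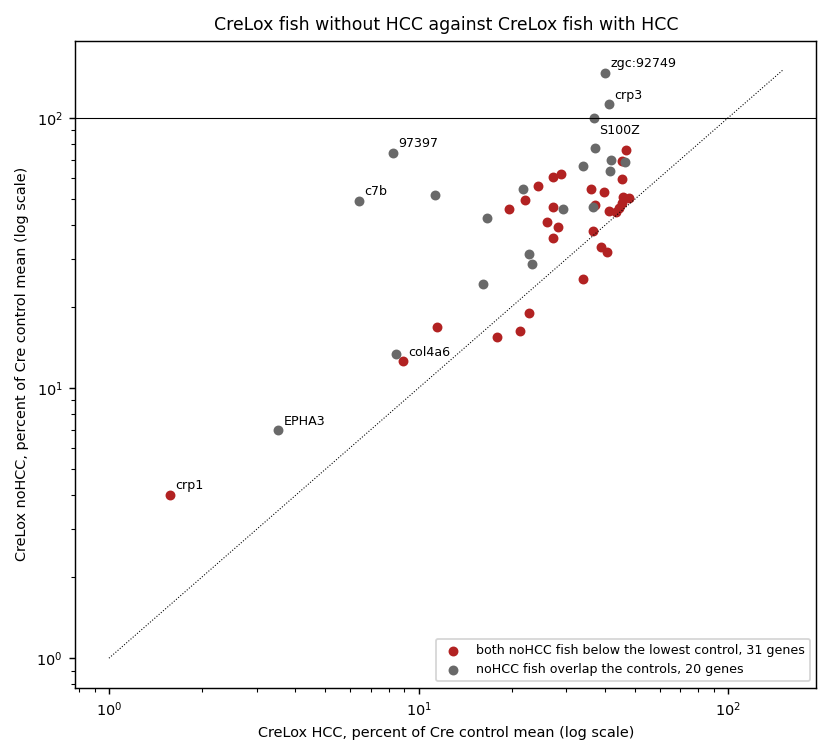
Mean CPM of the 2 CreLox noHCC fish against that of the 4 CreLox HCC fish, each as a percent of the Cre control mean, on log axes, for the 51 genes. Red points are the 31 genes with both noHCC fish below every control, the dotted line marks equal levels and the horizontal line 100%. Most points lie between the lines, and zgc:92749 (146.5%) and crp3 (112%) lie above 100%.

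Individual fish differed in how far the set was lowered. The median member was at 23.1%, 27.3%, 21.9% and 39.7% of the control mean in CreLox HCC fish 604, 605, 623 and 624, and at 42.5% and 45.0% in noHCC fish 625 and 609. Single Cre controls had medians of 92.5% to 105%. Fish 624 was the highest CreLox HCC fish for 26 of the 51 members, compared with 13% of all genes tested. Without it the rule was met by 74 genes, and 41 of the 51 members passed as lower in CreLox HCC, where 436 of 16860 genes did. The HepABC HCC fish had medians of 17.1%, 9.5%, 12.4%, 11.8% and 12.7%, against 90.3% to 109% in single NonTg fish, and 317E5 was the highest for 15 of 51 members, compared with 21% of all genes tested.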

How the data were processed

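Bulk mRNA libraries from livers of 20 zebrafish were read as raw counts per gene, deposited by the authors in 2 tables of 32520 genes. Per the labels and the study's methods, reads of 150 bases were aligned to GRCz11 with STAR (2.6.1b) and counted with featureCounts (1.6.3), and optical duplicates were removed in the CreLox experiment only. No column was left unmapped. The members and the gene lists were chosen with earlier results of these data known.

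CPM, group means and SD were computed from the deposited counts with pandas (2.3.3) in Python (3.11.15). Each library is 1 fish, and totals were 20903187 to 37994885 counts. No pair of libraries agreed within sampling noise. Comparisons used edgeR (4.0.16) quasi-likelihood tests with TMM scaling, its default filter on low counts, 1 fit per experiment and 1 over all 20 libraries for the difference between models, and Benjamini-Hochberg adjustment over all genes tested at 0.05. The scripts were tested on simulated data. Alternatives were DESeq2 (1.42.0) Wald tests, limma (3.58.1) voom with sample weights, other scalings, a filter of at least 1 count or of at least 10 counts in every library, the compared groups alone and each fish left out. Intervals cover counting error only.

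Genes were named by these rules: the 12 highest in control CPM, the 12 largest shared decreases, up to 4 per gene list, the 3 nearest each side of the ratio limit, up to 3 differences between models in each direction, and the 3 highest and 3 lowest in noHCC fish. Genes named beyond them, including those that complete each class, were chosen after their values were seen. Roles are textbook background. Symbols come from a gene-name table that matched 29201 IDs, and gene neighbours from RefSeq's GRCz12tu table, which matched 31 members. The values of 1 member, counted in the totals, are not reported here. No sequence or coordinate is given because GRCz11 was not used here.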

Additional observations from a re-analysis of the deposited data

Results flagged for a closer look

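Single fish stood far from the rest of their group, by the 95% critical value of Dixon's test, in 10 of 204 groups of 4 or 5 fish over the 51 genes. For normally distributed values that critical value flags about 1 in 20 groups. CPM were used untransformed and some were 0, so that rate is no measure of chance here. In HepABC HCC, fish 317E9 was high for ACSS1 (45.9 CPM, the others 10.7 to 19.9), col4a6 (0.427 CPM, the others 0 to 0.0887) and crp1 (0.0305 CPM, which is 1 count, the others 0). Fish 317E5 was high for S100Z (1.5 CPM, the others 0.392 to 0.709) and si:ch73-288o11.5 (22.6 CPM, the others 0.397 to 3.99).

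Among NonTg controls, fish 317C8 was high for EPHA3 (4.63 CPM, the others 0.805 to 1.77) and FURIN ENSDARG00000062909 (180.0 CPM, the others 103 to 118). Fish 317C4 was high for c7b (2875 CPM, the others 372 to 784), and fish 317C1 for si:ch211-240l19.8 (661 CPM, the others 2.26 to 176). Control 621 was low for si:ch211-243g18.2 (1.64 CPM, the other Cre controls 3.88 to 4.21).

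The log2 change in HepABC HCC minus that in CreLox HCC was past the edgeR threshold for 14 genes, which the same contrasts had chosen, and 13 are given here. Among secreted proteins the difference was −3.88 for f13b, −3.34 for C20H6orf58 ENSDARG00000095751, −2.99 for apof and −2.42 for crp3. It was −6.05 for HSD17B3, −1.83 for acss2l, −2.29 for BCAR3, −2.13 for IGFBP5 ENSDARG00000025348 and −2.70 for nrxn1b. Genes without a descriptive name had −6.02 (si:ch211-240l19.8), −5.41 (si:ch1073-464p5.2), −4.26 (zgc:172253) and −3.40 (ENSDARG00000093780).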

How the results depend on the processing

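The number of genes meeting the rule was 139 with TMM-scaled libraries and 133 with DESeq2 size factors, each including 46 of the 51 members, 32 with a control minimum of 5 CPM, 16 with a ratio limit of 0.25, and 4 after division by the hepatocyte marker sum, an alternative chosen after seeing the data. It was 51 to 74 with each fish left out, 74 without fish 624. The count of members lower in CreLox HCC was 10 to 41 with each fish left out in edgeR, 51 with DESeq2, 41 with limma voom, 30 of 42 tested under the strictest filter, and 31 to 35 under the other alternatives. Over all genes tested, 69 to 436 were called lower with each fish left out, 1065 with DESeq2 and 418 with limma voom. The strictest filter gave 264 of 12698 genes and the other alternatives 188 to 302, against 304 in the main fit. The count lower in noHCC fish was 11 with DESeq2, where 135 of all genes were, and 0 to 2 with each fish left out, where 1 to 3 were. DESeq2 called 1 member lower in CreLox HCC than in noHCC, and 12 of all genes. Members lower in HepABC HCC were 39 of 39 tested under the strictest filter and otherwise 50 or 51. Over all genes, 2183 of 12514 were called lower under that filter and otherwise 854 to 2944. The difference between models was past the threshold for 11 to 17 members with each fish left out. All were larger decreases in HepABC. Of all genes, 593 to 1132 passed with a negative difference, whether higher or lower in either model. crp3 lost that call in 14 of 24 alternatives, IGFBP5 in 4, apof in 3, and acss2l, f13b and si:ch211-240l19.8 in 1 each. No call changed direction in these alternatives. The stricter minimum and limit remove genes by construction, and for the other shifts the cause was not tested. No paired analysis was possible because the labels name each fish by its own identifier and give no replicate number that groups share. Genes with a few counts per library, such as crp1 and col4a6, were limited by depth.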
